A study of Mus musculus with 34 samples.

Results

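The binding of AP-1 monomers and lineage factors was described at 8 genes for macrophage surface receptors: *Csf1r*, *Adgre1*, *Itgam*, *Cd68*, *Msr1*, *Mrc1*, *Fcgr1* and *Mertk*. A peak was counted at a gene when its midpoint lay in the gene body or within 20 kb of either end (GENCODE M21, mm10). Of 596383 peaks in 30 ChIP-seq peak lists, 1211 lay at these genes. Overlapping peaks (1 bp or more) made up a locus, and 154 of 93024 loci were at the 8 genes, from 14 at *Adgre1* to 33 at *Mertk*.

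The lists came from thioglycollate-elicited peritoneal macrophages (TGEMs) and were made from 34 samples, 4 of which were inputs. The methods give the mice as male, 8 weeks old and of strain C57Bl/6J or BALB/cJ. They state neither sex nor age for the knockout mice in particular. Wild-type cells, labelled C57Bl/6EiJ (C57), were left with vehicle (Veh) or given Kdo2 lipid A (KLA), a Toll-like receptor 4 agonist, at 100 ng/mL for 1 h. They were assayed for ATF3, Jun, JunD, Fos, FosL2, JunB, PU.1 and CEBPα with both treatments and for PPARγ with Veh. Cells of strain Balb/cJ (BALB) were assayed for ATF3, Jun, JunD, Fos and JunB with both treatments, and cells labelled C57Bl6-PPARgKO, of the C57 strain with PPARγ knocked out, for ATF3, Jun and JunD with Veh. How the knockout was made, and in which cells, is not given in the sources used here. Each condition had 1 list, made by the authors from replicate experiments, so no spread between replicates was available and no difference was tested. The intervals given are 95% Wilson intervals and cover counting error over loci only. Because each sample is a bulk preparation, fewer cells of a type and less binding per cell cannot be told apart.

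Lists differed in length, from 9 peaks for JunB in BALB Veh to 41573 for PU.1 in C57 Veh, and the BALB Fos Veh list held none. A count is the number of tags in a peak. Counts were not scaled between lists, so a peak is described by its top percent, the rank of its count as a percentage of its list, in which 1% is near the top. The macrophage label was checked against marker genes by PU.1 peaks in C57 Veh. All 8 receptor genes had one, beside 4 of 6 neutrophil, 3 of 4 B cell, 3 of 4 T cell, 2 of 3 mast cell and 2 of 3 mesothelial marker genes. A peak among the strongest 5% of that list lay at 7 of the 8 receptor genes, at 1 neutrophil marker and at none of the B cell, T cell, mast cell and mesothelial markers. The check reads binding, not expression.

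PU.1 is an ETS factor that opens and marks enhancers in macrophages, and CEBPα is a bZIP factor that works beside it in myeloid cells. AP-1 factors bind DNA as dimers of Jun, Fos and ATF family monomers, some of them made within minutes of a Toll-like receptor signal. PPARγ is a nuclear receptor that binds many of the same macrophage enhancers. The 8 genes encode proteins that macrophages carry for growth signals, adhesion and uptake, and several are standard markers for sorting these cells.

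The central 200 bp of the locus shared by most lists is shown for the 5 genes at which that locus held no UTR and was not on a chromosome left out here, because these sequences are where most of the assayed factors met. Sequences are the reference plus strand of GRCm38.p6, which has the mm10 chromosomes, with exact motif matches in capitals. The motifs searched on both strands were the TRE (TGACTCA or TGAGTCA), the CRE (the same with a second C or G in the middle), the PU.1 core (ACTTCCT) and the CEBP motif (TT, A or G, C, A or G, C or T, AA).
Adgre1, chr17:57347062-57347261, 11.5 kb upstream: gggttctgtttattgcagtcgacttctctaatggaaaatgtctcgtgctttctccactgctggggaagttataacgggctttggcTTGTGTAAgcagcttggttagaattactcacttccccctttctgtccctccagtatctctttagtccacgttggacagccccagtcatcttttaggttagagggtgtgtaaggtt
Fcgr1, chr3:96300759-96300958, 6.89 kb upstream: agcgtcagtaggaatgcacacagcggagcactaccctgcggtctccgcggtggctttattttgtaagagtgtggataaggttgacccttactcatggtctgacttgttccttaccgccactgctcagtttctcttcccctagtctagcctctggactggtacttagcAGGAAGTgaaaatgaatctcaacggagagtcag
Mertk, chr2:128806703-128806902, 108 kb downstream of the start: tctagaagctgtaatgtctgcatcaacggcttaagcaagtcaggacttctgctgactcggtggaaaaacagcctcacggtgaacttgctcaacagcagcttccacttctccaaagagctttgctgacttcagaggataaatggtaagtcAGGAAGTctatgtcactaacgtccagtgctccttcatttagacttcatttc
Mrc1, chr2:14231554-14231753, 2.26 kb downstream of the start, intronic: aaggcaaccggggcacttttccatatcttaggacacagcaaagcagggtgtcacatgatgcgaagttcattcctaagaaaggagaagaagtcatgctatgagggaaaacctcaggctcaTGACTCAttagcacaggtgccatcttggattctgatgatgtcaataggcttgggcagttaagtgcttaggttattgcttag
Msr1, chr8:39651827-39652026, 9.25 kb upstream: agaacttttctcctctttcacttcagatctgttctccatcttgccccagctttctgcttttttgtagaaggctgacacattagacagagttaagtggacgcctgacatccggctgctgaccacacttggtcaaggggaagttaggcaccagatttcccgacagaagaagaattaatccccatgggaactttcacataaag

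A PU.1 core was found in the *Fcgr1* and *Mertk* sequences, a CEBP motif in that of *Adgre1* and a TRE in that of *Mrc1*, while that of *Msr1* held no exact match to any of the 4. The *Adgre1*, *Fcgr1* and *Mertk* sequences held no exact TRE or CRE although 4 AP-1 monomers in Veh and 6 after KLA had a peak at each. A further pair of sequences is shown because all 6 monomers had a peak there after KLA in C57 and none had one with Veh. They were added after the values were seen.
Msr1, chr8:39620330-39620529, 22.2 kb downstream of the start, intronic: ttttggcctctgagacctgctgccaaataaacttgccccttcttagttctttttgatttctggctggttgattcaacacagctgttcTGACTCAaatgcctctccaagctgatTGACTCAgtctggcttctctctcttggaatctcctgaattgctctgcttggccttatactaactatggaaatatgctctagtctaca
Mrc1, chr2:14279273-14279472, 50.0 kb downstream of the start, intronic: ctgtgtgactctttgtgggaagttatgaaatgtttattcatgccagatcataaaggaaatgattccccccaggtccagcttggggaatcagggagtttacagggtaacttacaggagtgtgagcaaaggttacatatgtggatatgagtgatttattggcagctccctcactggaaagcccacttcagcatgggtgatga

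The *Msr1* sequence held 2 TREs and the *Mrc1* sequence none.

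**Figure D1:**
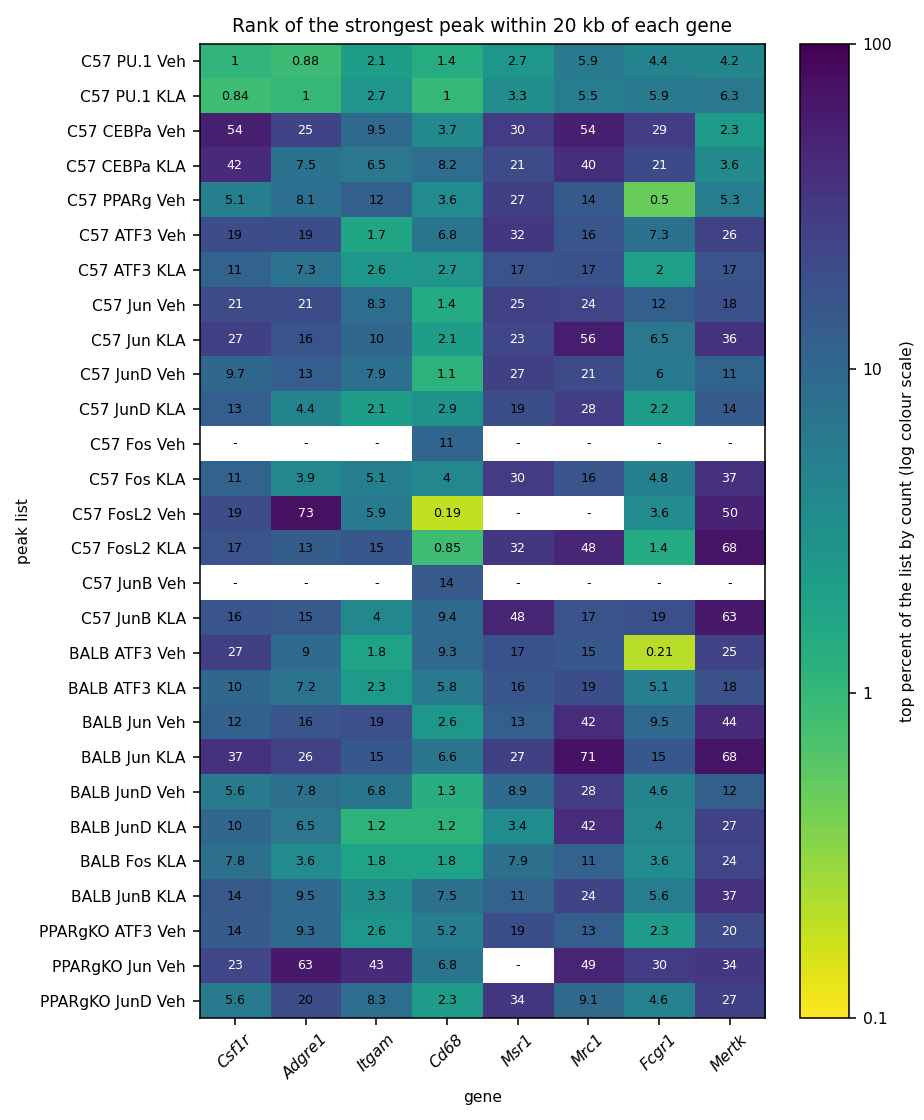
Top percent of the strongest peak within 20 kb of each gene (columns) in 28 lists (rows), on a log colour scale in which lighter is nearer the top of the list. A dash marks no peak. PU.1 values lie between 0.844% and 6.33% in every cell of its 2 rows, while the CEBPα values run from 2.34% to 54.2%.

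PU.1 marked all 8 genes strongly in resting cells. Each had 7 to 18 PU.1 peaks in C57 Veh, 84 in all, and the strongest peak at each gene ranked between the top 0.876% at *Adgre1* and the top 5.91% at *Mrc1* of the list. Of the 154 loci, 83 had a PU.1 peak in C57 Veh, or 53.9% (46.0 to 61.6%), beside 44.1% of all loci. Among 21924 protein-coding genes, 65.8% had a PU.1 Veh peak by the same window, 37.3% a CEBPα Veh peak and 62.1% a PPARγ peak, and all 8 receptor genes had each. Their windows are longer, with a median of 98.4 kb against 57.4 kb for all genes, so peaks were also counted per length: the median was 13.0 PU.1 Veh peaks per 100 kb at the 8 genes and 2.09 over all genes. For 35 other myeloid receptor genes (of 36 listed) the median was 10.4, with a peak among the strongest 5% at 19 of them, and for 20 receptor genes of other lineages it was 2.28, with such a peak at 1 of them. The corresponding share was 9.85% of all genes. The 35 include *Itgax*, whose window overlaps that of *Itgam*, so some peaks count for both sets of genes.

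CEBPα was less even. The 8 genes had 28 CEBPα peaks in Veh and 31 after KLA. The highest ranked in Veh was at the far end of the *Mertk* window, at the top 2.34%, in an intron of *Tmem87b* 1.09 kb from its start. The next was 5.24 kb upstream of *Cd68*, at the top 3.65%, where the nearest coding start is that of *Eif4a1*. At *Csf1r* and *Mrc1* no CEBPα Veh peak ranked above the top 54.2%. PPARγ had 59 peaks, with the highest rank at *Fcgr1* (top 0.499%) and the lowest best rank at *Msr1* (top 26.8%).

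**Figure D2:**
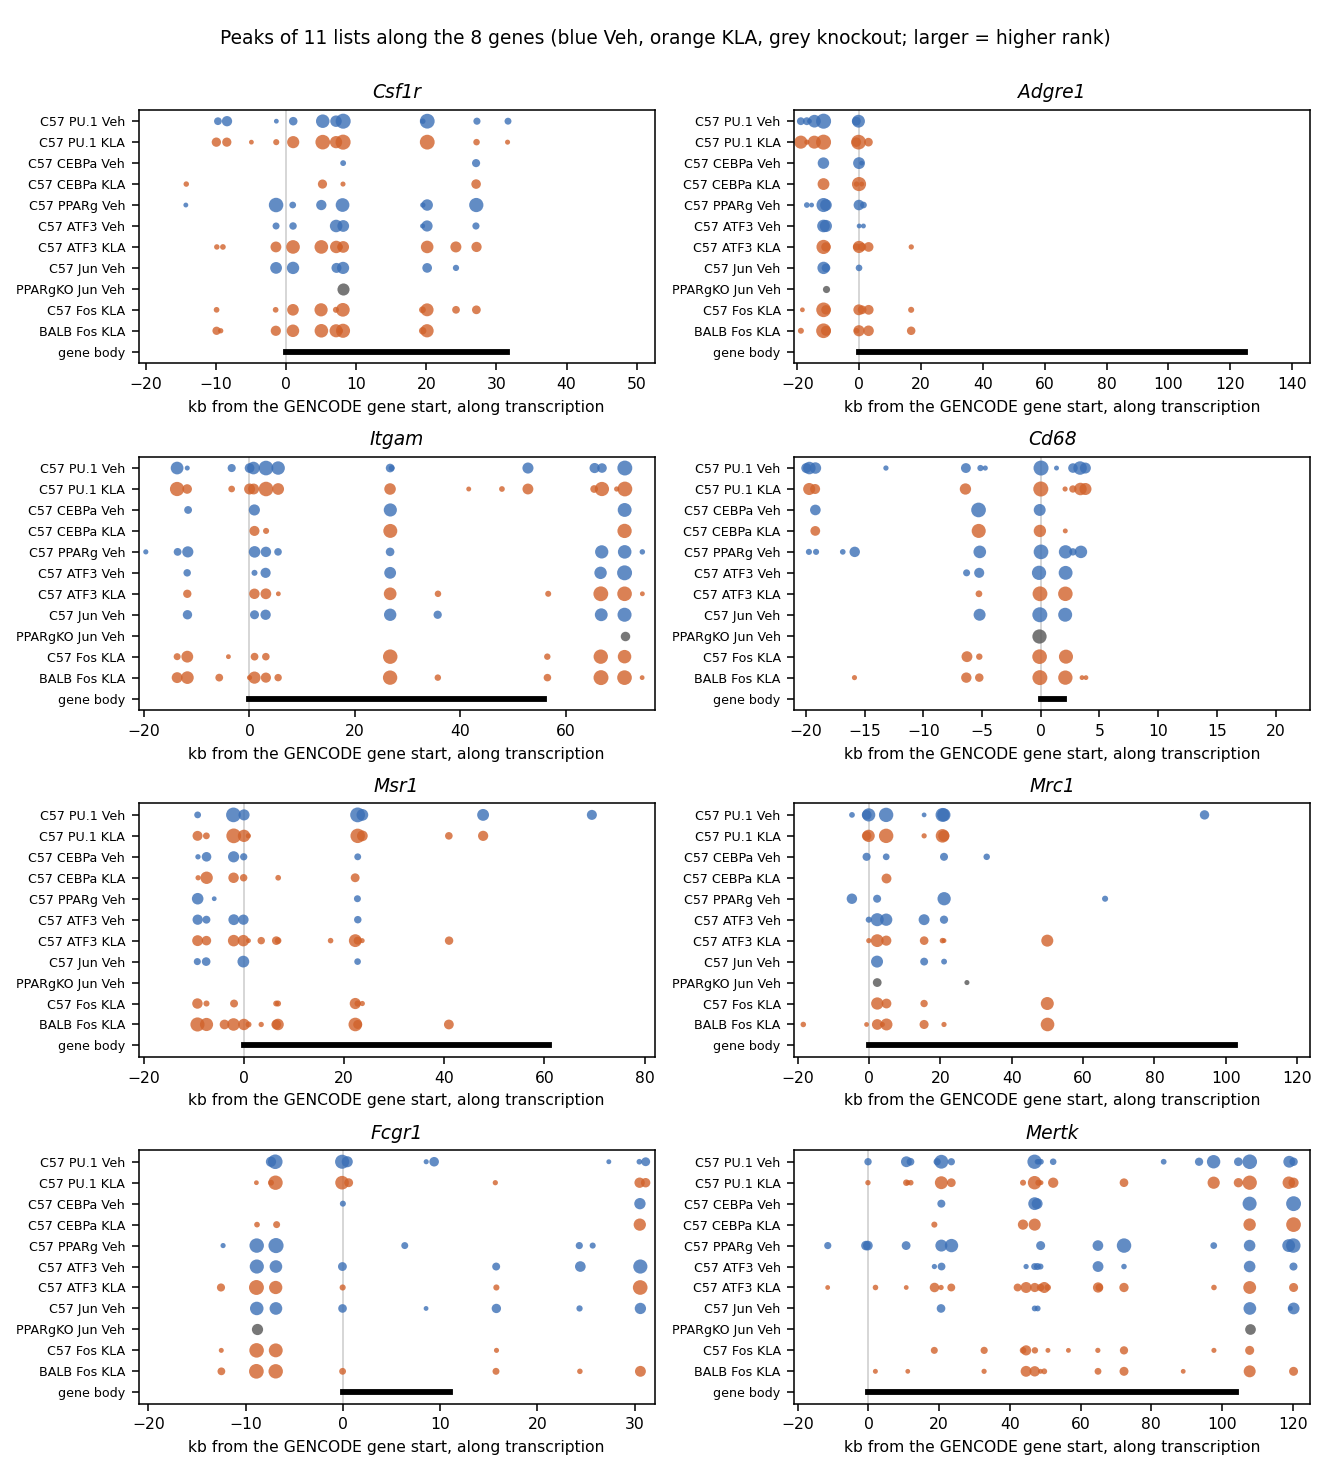
Peaks of 11 lists along each gene, by distance in kb from the GENCODE gene start in the direction of transcription, with blue for Veh, orange for KLA, grey for the knockout, larger points for higher ranks and a black bar for the gene body. Columns of points mark loci shared by many lists, such as the one 11.5 kb upstream of *Adgre1*. Isolated orange points mark loci seen after KLA alone among the lists drawn, which leave out JunD, FosL2 and JunB.

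*Csf1r* encodes the receptor for M-CSF, which macrophages need for survival (chromosome 18, 61100598 to 61132149, plus strand). Its 17 loci included 1 with peaks in 26 lists, in an intron 8.06 kb from the gene start. There PU.1 had a count of 1026 with Veh (top 1.05%) and 296 after KLA (top 0.844%). ATF3, Jun, JunD and FosL2 had peaks there with Veh and all 6 monomers after KLA, and the strongest of each ranked from the top 9.72% (JunD, Veh) to the top 29.5% (FosL2, Veh). A locus that overlaps an exon, 20.1 kb from the start, had PU.1 at the top 2.77% with Veh and 2.66% after KLA. At another, 5.07 kb from the start, 1 monomer had a peak in C57 Veh (JunD, top 56.3%) and 6 after KLA, among them ATF3 at the top 11.2%, while PU.1 was at the top 12.3% and 3.97%. In BALB Veh both Jun (top 93.3%) and JunD (top 43.6%) had a peak there.

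*Adgre1* encodes F4/80, an adhesion receptor used as a marker of mouse macrophages (chromosome 17, 57358691 to 57483527, plus strand). Of its 14 loci in a window of 165 kb, the one farthest into the gene was 16.8 kb from the start. The locus 11.5 kb upstream (chr17:57346980-57347363, between genes) had peaks in 25 lists. PU.1 counts there were 1048 with Veh and 287 after KLA, the top 0.876% and 1.01% of their lists. ATF3 ranked at the top 18.9% with Veh and 7.27% after KLA, and Fos after KLA at the top 3.94%. At the promoter (chr17:57358310-57358832), which was picked after its values were seen, each of the 6 C57 factors with a peak in both treatments ranked nearer the top after KLA. PU.1 was at 17.2% with Veh and 2.97% after KLA, CEBPα at 24.6% and 7.55%, and ATF3 at 94.4% and 22.05%. Jun was at 67.8% and 44.9%, JunD at 41.8% and 18.8%, and FosL2 at 73.4% and 65.5%.

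*Itgam* encodes CD11b, the α chain of an adhesion and complement receptor (chromosome 7, 128062640 to 128118491, plus strand). Its window reaches the start of *Itgax*, which encodes CD11c, and 11 of its 23 loci lay nearest to *Itgax*. The locus with most lists, 24, lay there, 4.26 kb from the *Itgax* start and 71.2 kb from that of *Itgam*, in an exon of *Itgax*. ATF3 was at the top 1.70% with Veh and 4.23% after KLA, and PU.1 at the top 2.07% and 2.70%. An *Itgam* intron 26.7 kb from its start also had peaks in 24 lists, with Fos after KLA at the top 5.12%, FosL2 in Veh at 5.87% and PU.1 at 49.4% with Veh and 26.9% after KLA. A locus at the *Itgax* promoter had PU.1 at the top 42.4% with Veh and 6.90% after KLA, and ATF3 at 20.4% and 2.58%.

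Among the scavenger and lectin receptors, *Cd68* (chromosome 11, 69664213 to 69666153, minus strand), which encodes a lysosomal and surface glycoprotein, had the densest window, with 15 loci in 41.9 kb. Its promoter locus (chr11:69666012-69666481) had peaks in 26 lists. FosL2 in Veh ranked at the top 0.188%, JunD at 1.13%, Jun at 1.44% and PU.1 at 1.39%, and after KLA FosL2 was at 0.848% and PU.1 at 0.996%. Of the 15 loci, 2 had the *Cd68* start as the nearest coding start, since 5 other coding genes start in the window.

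*Msr1* (chromosome 8, 39581685 to 39642673, minus strand), which encodes scavenger receptor A, had 7 PU.1 peaks with Veh, the strongest over an exon 22.7 kb from the start at the top 2.66%. The *Msr1* locus with most lists, 21, lay 9.25 kb upstream and had PU.1 at the top 66.3% with Veh and 39.3% after KLA. The exon locus at 22.7 kb also had peaks of 3 monomers with Veh. Beside it, the *Msr1* intron at 22.2 kb (chr8:39620275-39620579) had no peak in any Veh list, no PU.1 peak and a CEBPα peak after KLA. After KLA in C57 its counts were 147 for ATF3 (top 17.2%), 413 for JunD (25.9%), 41 for Jun (27.3%), 70 for Fos (29.7%), 60 for FosL2 (32.3%) and 33 for JunB (50.8%). In BALB, ATF3, Fos and JunB had a peak there after KLA, with Fos at the top 11.4%.

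*Mrc1* (chromosome 2, 14229392 to 14332057, plus strand), which encodes the mannose receptor, had its most shared locus 2.26 kb into the gene, with peaks in 21 lists. No PU.1 or CEBPα peak was called there, while ATF3 ranked at the top 15.6% with Veh and 17.5% after KLA. PU.1 was strongest 4.82 kb into the gene, at the top 5.91% with Veh and 5.52% after KLA. The *Mrc1* intron at 50.0 kb (chr2:14279201-14279587) had peaks in 11 lists, all of them AP-1 after KLA, 6 in C57 and 5 in BALB. Fos was at the top 16.2% in C57 and 11.4% in BALB, and ATF3 at 23.4% and 27.4%.

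*Fcgr1* (chromosome 3, 96282909 to 96293969, minus strand) encodes the high-affinity IgG receptor. Its locus 6.89 kb upstream (chr3:96300639-96301036) had peaks in 23 lists, with PPARγ at a count of 339 (top 0.499%) and PU.1 at the top 4.39% with Veh and 5.91% after KLA. A second locus, 8.87 kb upstream, also had 23 lists. There ATF3 was at the top 7.64% with Veh and 2.01% after KLA, FosL2 after KLA at 1.42% and PU.1 only after KLA, at 97.9%. The highest AP-1 rank in the window, ATF3 in BALB Veh at the top 0.210%, was 30.6 kb from the *Fcgr1* start, where the nearest coding start is that of *Hist2h4*.

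*Mertk* (chromosome 2, 128698956 to 128802894, plus strand) encodes a receptor tyrosine kinase for the uptake of apoptotic cells. It had 33 loci, of which 21 had its own start as the nearest coding start. The one with most lists, 24, lay beyond the 3′ end of the gene, 11.3 kb from the start of *Tmem87b* (chr2:128806626-128807069), with PU.1 at the top 4.20% with Veh and 6.33% after KLA and CEBPα at 8.32% and 20.6%. In C57 after KLA the best Fos peak at *Mertk* was at the top 37.4% and the best JunB peak at the top 63.2%, each the lowest best rank among the 8 genes.

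More AP-1 peaks were called at these genes after KLA than with Veh. In C57, peaks at the 8 genes went from 47 to 75 for ATF3, 44 to 72 for JunD, 39 to 43 for Jun, 1 to 57 for Fos, 13 to 25 for FosL2 and 1 to 30 for JunB. Of 80 ATF3 loci seen in either treatment, 33 had a peak after KLA alone, or 41.2% (31.1 to 52.2%), beside 43.7% of all ATF3 loci. The share was 29.1% of 55 for Jun (all loci, 35.3%), 42.1% of 76 for JunD (45.4%), 98.2% of 57 for Fos (92.8%), 53.6% of 28 for FosL2 (60%) and 96.7% of 30 for JunB (96.6%). For each of the 6 the interval held the share over all loci, so these shares are no result about the receptor genes. With Veh alone, peaks were seen at 6.25% of the ATF3 loci (10.6% of all), 21.8% for Jun (27.3%) and 5.26% for JunD (12.1%). The lists themselves were longer after KLA, from 23160 to 36745 peaks for ATF3 and from 1804 to 24365 for Fos. With both lists cut to the length of the shorter, the KLA-only share was 24.2% for ATF3 (25.2% of all loci), 21.4% for JunD (28.3%) and 23.5% for FosL2 (38.3%), while 6 Fos loci and 1 JunB locus were left.

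The 6 monomers together occupied 95 loci at the 8 genes in C57, of which 50 had a peak in both treatments, 10 with Veh alone and 35 after KLA alone, or 36.8% (27.8 to 46.9%) beside 38% of all AP-1 loci. The number of KLA-only loci ran from 11 of 24 at *Mertk* and 7 of 12 at *Msr1* to 1 of 8 at *Fcgr1* and 0 of 9 at *Cd68*. At 14 of the 35, 3 or more monomers had a peak: 2 at *Csf1r*, 2 at *Adgre1*, 4 at *Msr1*, 1 at *Mrc1* and 5 at *Mertk*. They lay 9.84 and 9.15 kb upstream of *Csf1r*, 0.881 and 3.04 kb into *Adgre1*, 6.65, 17.3, 22.2 and 40.9 kb into *Msr1*, 50.0 kb into *Mrc1* and 23.5, 43.7, 50.7, 65.3 and 97.7 kb into *Mertk*. The share of such loci among all KLA-only AP-1 loci was not counted, so the 14 say nothing particular about these genes. KLA-only refers to the C57 lists, and some of the 14 had a Veh peak in BALB or the knockout. In BALB Veh, JunD was at the top 77.1% at the locus 9.84 kb upstream of *Csf1r* and 62.5% at 97.7 kb into *Mertk*. In the knockout JunD was at the top 76.8% at both the 9.84 kb and the 9.15 kb *Csf1r* locus. It was at the top 92.5% at 0.881 kb into *Adgre1*. ATF3 in the knockout was at the top 76.1% at the 9.84 kb *Csf1r* locus. These are examples and not a full list. Of the 35, 27 had an ATF3 peak (77.1%, beside 77.3% of all KLA-only AP-1 loci), 22 a JunD peak (62.9%, beside 60.1%) and 17 a Fos peak (48.6%, beside 44.5%). Jun was at 9 (25.7%, beside 22.8%), JunB at 7 (20.0%, beside 18.1%) and FosL2 at 3 (8.57%, beside 13.5%), so the makeup was near that over all such loci. A PU.1 peak in Veh was already present at 9 of the 35, or 25.7% (14.2 to 42.1%), beside 22.03% of all KLA-only AP-1 loci.

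**Figure D3:**
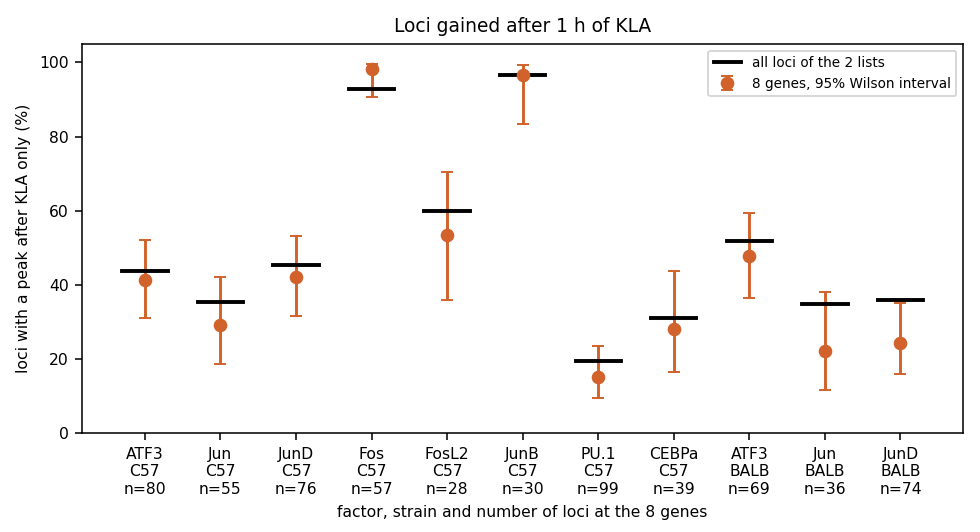
Share of loci with a peak after KLA alone (vertical axis, %), for each factor and strain, with the number of loci at the 8 genes under each name. Points are the 8 genes with 95% Wilson intervals and black bars are all loci of the same 2 lists, and the point and bar lie close for most factors, with BALB JunD the one whose interval ends below its bar.

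Of 99 PU.1 loci at the 8 genes, 65 were in both lists (65.7%, beside 59.3% of all), 15 after KLA alone (15.2%, beside 19.5% of all PU.1 loci) and 19 with Veh alone (19.2%, beside 21.2%). For CEBPα, 20 of 39 were in both lists (51.3%, beside 47.9%), 11 were seen after KLA alone (28.2%, beside 31.2%) and 8 with Veh alone (20.5%, beside 21%). At the 65 shared PU.1 loci the median change in top percent was 0.75 points, with 30 of them nearer the top after KLA, against -0.46 points over all shared PU.1 loci. At shared loci of the 8 genes, Jun was nearer the top after KLA at 7 of 27 and ATF3 at 28 of 42. Over all shared loci the median changes were 2.05 points for Jun and -5.53 for ATF3, beside 5.99 and -5.22 at the 8 genes, where a positive value means a lower rank after KLA. A list that gains weaker peaks moves its shared peaks nearer the top. The ATF3 list grew from 23160 to 36745 peaks, so for ATF3 a change in rank and a change in list length cannot be told apart. The Jun list grew from 15548 to 17480 peaks, while the median change at its shared loci was to a lower rank. The cause was not tested.

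**Figure D4:**
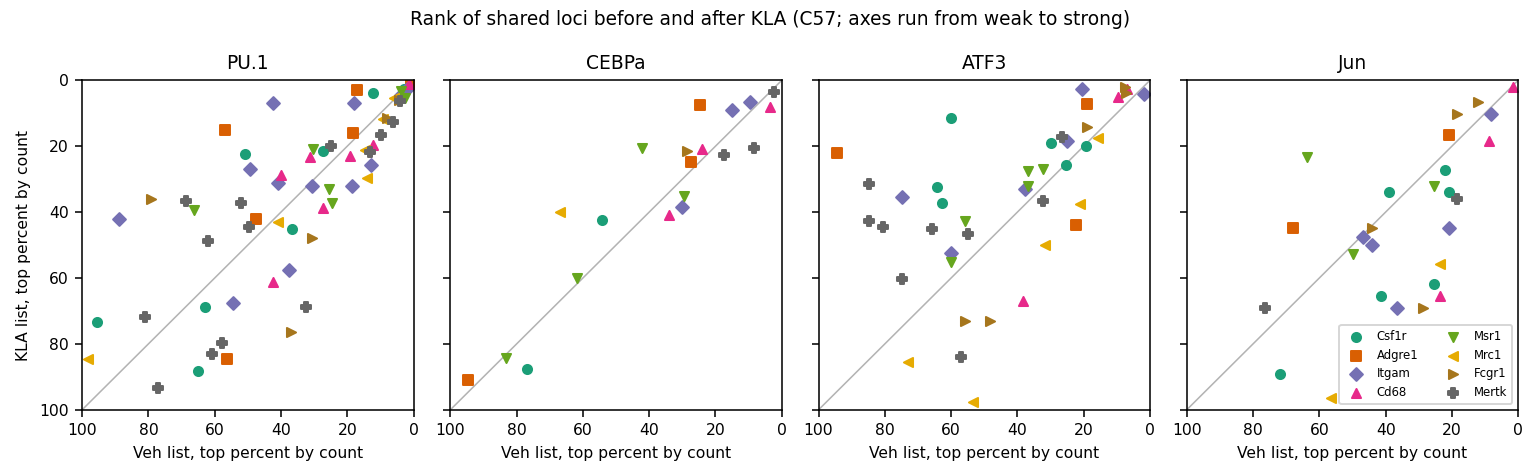
Top percent of each shared C57 locus at the 8 genes in the Veh list (horizontal axis) and the KLA list (vertical axis), both running from weak to strong, with 1 marker per gene. Points above the grey line ranked nearer the top after KLA, and the *Adgre1* promoter stands above it for PU.1, CEBPα, ATF3 and Jun.

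Most AP-1 loci at the 8 genes held PU.1. With Veh, 45 of 60 AP-1 loci at the 8 genes had a PU.1 peak, or 75.0% (62.8 to 84.2%), beside 55.8% of all AP-1 loci. After KLA the share was 54 of 87, or 62.1% (51.6 to 71.5%), beside 52.1%. The Veh value depended on how overlap was counted: with peak centres within 100 bp it was 57.4%, beside 49.6% of all loci. Loci with all of ATF3, Jun and JunD in Veh and all 6 monomers after KLA made up 13 of the 92 loci at the 8 genes with a peak in any of those 9 lists, or 14.1% (8.45 to 22.7%), beside 7.72% of such loci overall. Of the 97 loci with PU.1 in either treatment, here joined over all 30 lists rather than over the PU.1 lists alone, 34 had no C57 AP-1 peak, or 35.1% (26.3 to 44.95%), beside 45.9%.

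Exact motif matches within the central 200 bp were found at 16.9% (TRE), 1.95% (CRE), 21.4% (PU.1 core) and 10.4% (CEBP motif) of the 154 loci, beside 18.5%, 4.96%, 23.1% and 6.85% of the 92912 loci in the whole series whose sequence was read. With the central 100 bp instead, the shares at the 8 genes were 14.9% for the PU.1 core and 5.84% for the CEBP motif. No share over all loci is given at that width, so these values cannot be set against those for 200 bp. A PU.1 core was present at 29 of the 83 loci with PU.1 in Veh (34.9%, beside 39.2%). A TRE was present at 7 of the 35 KLA-only AP-1 loci (20.0%, interval 10.0 to 35.9%, beside 29.9%). At loci with PPARγ, 10 of 59 had a CEBP motif, or 16.9% (9.48 to 28.5%), beside 6.80% of all PPARγ loci. The higher share was not particular to PPARγ. At loci with PU.1 in Veh it was 11 of 83, or 13.3% (7.56 to 22.2%), beside 5.26%. At CEBPα loci it was 8 of 39, or 20.5% (10.8 to 35.5%), beside 21.5%. With a flank of 5 kb, 5.71% of the loci at the 8 genes had a CEBP motif, and the share at loci with PPARγ was not recomputed.

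Strains were compared on 8 pairs of lists. In BALB all 8 genes had ATF3, Jun and JunD peaks with Veh, as did 44.9%, 30.3% and 54.2% of all coding genes, and Fos and JunB peaks after KLA, as did 58.3% and 39.8%. In C57 all 8 had them too, beside 47.4%, 39.4%, 45.8%, 44.7% and 30.1% of all genes. The share of loci found in both strains was 62.7% of 51 for ATF3 with Veh (49.0 to 74.7%, beside 52% of all), 52.3% of 44 for Jun (37.9 to 66.2%, beside 39.9%) and 61.3% of 62 for JunD (48.8 to 72.4%, beside 44.5%). After KLA it was 64.7% for ATF3 (61.8%), 38.3% for Jun (39.2%), 51.8% for JunD (55.6%), 52.9% for Fos (50.6%) and 50.0% for JunB (43.3%). JunD with Veh was the one of the 8 whose interval did not reach the share over all loci. The JunD share depended on the setting: 59.0% of 39 in the strongest 50% of each list, beside 55.7%. With centres within 100 bp it was 53.8% of 65, beside 42.4%, and with lists of equal length 70.4% of 54, beside 54.8%. KLA-only shares in BALB were 47.8% of 69 for ATF3 (beside 51.8%, and 26.5% beside 27.2% with lists of equal length), 22.2% of 36 for Jun (beside 34.8%; 9.52% of 21 in the strongest 50% of each list, beside 32.5%) and 24.3% of 74 for JunD (16.0 to 35.2%, beside 35.9%).

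Some loci were seen in 1 strain alone. Of 110 loci with a peak in any of the 16 lists, 7 had a peak in 3 or more C57 lists and in no BALB list, or 6.36% (3.12 to 12.6%), beside 1.53% of all such loci, and 2 had the reverse, or 1.82% (0.500 to 6.39%), beside 3.56%. The 7 were 2 at *Csf1r*, 3 at *Mertk*, and 1 each at *Mrc1* and *Msr1*. They were singled out after their values were seen. The most marked was intronic, 27.1 kb into *Csf1r*: 7 of the 8 C57 lists had a peak there and none of the 8 BALB lists, nor any of the 3 knockout lists. Its C57 counts were 46 for ATF3 with Veh (top 62.9%) and 93 after KLA (37.1%), with PPARγ at 122 (6.96%) and PU.1 at the top 63.0% with Veh. At the *Mrc1* promoter (chr2:14229143-14229527), ATF3 and JunD had C57 peaks in both treatments, from the top 73.0% to the top 85.5%, and no BALB or knockout list had one, while PU.1 was at the top 14.5% with Veh and 21.2% after KLA. No PU.1 list of BALB was analysed here, and how the alignment to the strain genome bears on these loci was not tested.

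In the PPARγ knockout, Jun peaks were few at all 8 genes. Wild-type Veh had 39 Jun peaks there and the knockout 8, with 1 each at *Adgre1*, *Cd68*, *Csf1r*, *Fcgr1*, *Itgam* and *Mertk*, 2 at *Mrc1* and none at *Msr1*. Of the 39, 32 had no knockout peak, or 82.1% (67.3 to 91.0%), beside 78.2% of all Jun peaks. For ATF3 the count was 13 of 47, or 27.7% (16.9 to 41.8%), beside 21.8%, and for JunD 19 of 44, or 43.2% (29.7 to 57.8%), beside 46.5%. These shares are near those over all peaks and say nothing particular about receptor genes. The knockout Jun list was short, 4290 peaks against 15548 in wild type, and 16.5% of genes had a peak in it, against 7 of the 8 receptor genes, whose windows are longer. With a flank of 5 kb these were 10.46% of genes and 4 of the 8. With both lists cut to 4290 peaks, 10 of 16 Jun peaks at the 8 genes had no knockout peak, or 62.5%, beside 47.3% of all. In the strongest 50% of each list the ATF3 share was 12%, beside 11.4%.

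**Figure D5:**
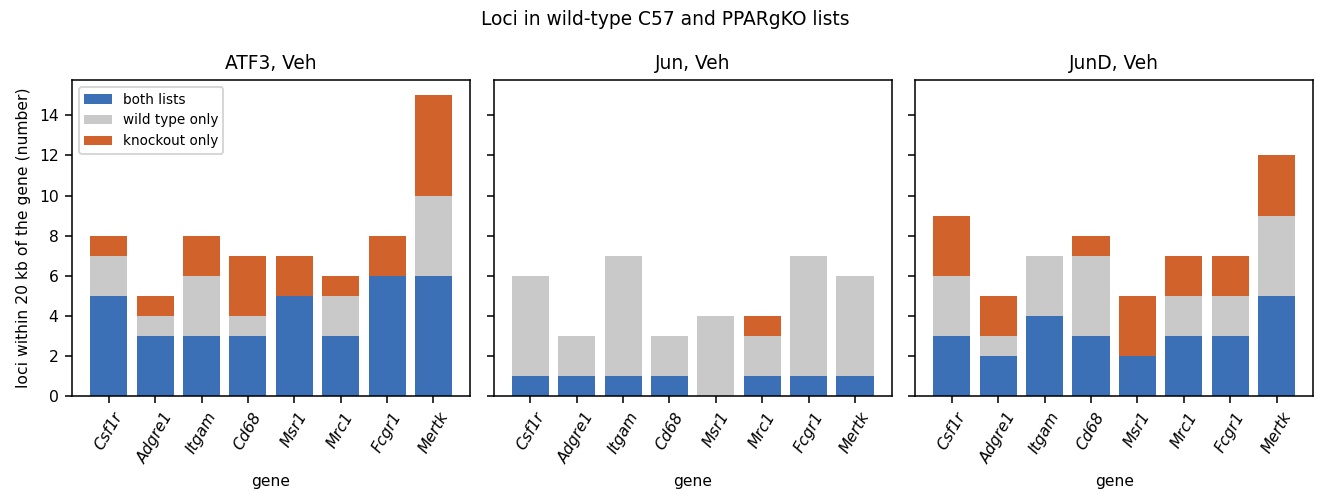
Loci at each gene (horizontal axis) in the wild-type C57 and PPARgKO Veh lists for ATF3, Jun and JunD, as stacked numbers of loci found in both lists, in wild type only and in the knockout only. For Jun the blue part is 1 or 0 loci at every gene.

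Most Jun peaks with PPARγ, and all of those without it, had no peak in the knockout list. Of the 26 Jun peaks at these genes that overlapped a PPARγ peak, 19 had no knockout peak (73.1%, beside 71.4% of all such peaks), and of the 13 that did not, 13 had none (100%, beside 91.2%). The 19 included the loci 11.5 kb upstream of *Adgre1* and 6.89 kb upstream of *Fcgr1*, the *Csf1r* locus at 20.1 kb and the *Itgam* locus at 26.7 kb. The stronger Jun peak upstream of *Fcgr1*, at 8.86 kb with a count of 47 (top 12.3%), had a knockout peak. At the *Adgre1* locus the Jun count in wild type was 39 (top 20.7%) and at the *Fcgr1* locus 41 (top 18.4%), and ATF3 and JunD had knockout peaks at both. The 7 with a knockout peak had a median top percent of 18.4% in the wild-type list, and the 32 without one a median of 45.5%, beside 17.3% and 56.4% over all Jun peaks. Of those 32, 28 had ATF3 in wild type, and ATF3 had a knockout peak at 23 of the 28 (82.1%, beside 84.0% of all). JunD was there in wild type at 24 and had a knockout peak at 13 of them (54.2%, beside 53.1%). ATF3 peaks that overlapped PPARγ had no knockout peak at 9 of 32 (28.1%, interval 15.6 to 45.4%, beside 14.9% of all such peaks; 11.1% in the strongest 50% of each list, beside 8.31%), and those without PPARγ at 4 of 15 (26.7%, beside 32.4%). For JunD the counts were 13 of 33 with PPARγ (39.4%, beside 38.7%; 57.1% of 21 with a flank of 5 kb) and 6 of 11 without it (54.5%, beside 64.0%).

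By gene, 47.4% of protein-coding genes had an ATF3 peak in C57 Veh, 55% after KLA, and 44.7% a Fos peak after KLA, and all 8 receptor genes had each. A peak among the strongest 5% of the ATF3 Veh list lay at 1 of the 8, *Itgam*, at 17 of the 35 other myeloid receptor genes and at 4.82% of all coding genes. The ATF3 KLA list had one at 3 of the 8 (*Itgam*, *Cd68* and *Fcgr1*), at 18 of the 35 and at 6.99% of all. In both lists these *Itgam* peaks lay nearest to the start of *Itgax*. *Itgax* is itself 1 of the 35, so the same peaks count for both sets of genes. Over the 28 lists with at least 50 peaks, the coding gene over 100 kb away whose best ranks were most alike by Pearson r was *Itgav* for *Csf1r* (0.97), *Mtus1* for *Adgre1* (0.98), *Smim3* for *Itgam* (0.98), *Naa25* for *Cd68* (0.83), *Cytip* for *Msr1* (0.96), *Megf11* for *Mrc1* (0.92), *Slc41a2* for *Fcgr1* (0.99) and *Zfp710* for *Mertk* (0.96). Lists of 1 factor share sites, so these values are descriptions of likeness over lists that are not independent.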

How the data were processed

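ChIP-seq peak lists for 9 factors were used, 1 list per condition (17 C57, 10 BALB, 3 PPARgKO); the 4 inputs had no list here. The deposited count of each peak is the tag count, and the deposited score (idrScore, 540 to 1000) comes from IDR. The authors aligned reads with Bowtie2 to mm10 or a BALB/cJ genome (with positions then returned to mm10) and found peaks by HOMER (size 200, FDR 0.9, no local filters) against input of the same treatment. They combined replicates with IDR 2.0.3 at 0.05. Replicates are merged in these lists and counts were not scaled between lists, so ranks within a list were used and no test was run. Peaks were assigned by midpoint to gene bodies and 20 kb flanks (GENCODE M21), joined into loci at 1 bp of overlap, and shares were given with 95% Wilson intervals. Depth per library is not in the lists; summed peak counts ran from 9196 to 13809143 over the lists with at least 50 peaks.

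All 8 genes were named. Loci were named as, per gene, the one in most lists and the one with the strongest PU.1 Veh peak, then KLA-only loci with at least 3 monomers, and Jun loci absent from the knockout list that had PPARγ. The genes, lists and rules were chosen with earlier results of these data known. Alternatives were a 5 kb flank, nearest start, centres within 100 bp, 50% reciprocal overlap, a pair of lists cut to the same length, the upper 50% of each list by count, a central 100 bp and leaving out *Mertk*. Scripts were tested on simulated data (Python 3.11.15, pandas 2.3.3, pysam 0.24.0).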

Additional observations from a re-analysis of the deposited data

Results flagged for a closer look

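The number of Jun peaks at the 8 receptor genes moved in opposite directions with KLA in the 2 strains: the change from Veh to KLA was 4 peaks in C57 (39 to 43) and -6 peaks in BALB (28 to 22). The difference between strains was not tested, since each condition had 1 list. The whole Jun lists went from 15548 to 17480 peaks in C57 and from 10957 to 11317 in BALB.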

How the results depend on the processing

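Of 248 values recomputed under an alternative, 223 were labelled the same as the reported value and 25 as moved. A share was the same when it lay within the counting interval of the reported share. Numbers of loci or genes were judged by a fixed limit on their ratio to the reported number instead. Cutting both lists to the shorter length gave KLA-only shares of 24.2% for ATF3, 21.4% for JunD, 83.3% for Fos, 23.5% for FosL2 and 0% for JunB in C57 and 26.5% for ATF3 in BALB, a Jun share without a knockout peak of 62.5% and a Fos share common to both strains of 65.1%. In the strongest 50% of each list there were 95 loci, the BALB Jun KLA-only share was 9.52%, the ATF3 share without a knockout peak was 12% (11.1% with PPARγ), the JunD KLA share common to both strains was 68.3% and AP-1 Veh loci with PU.1 were 54.1% (43.3% of all loci). That share was 57.4% with centres within 100 bp and 57.4% with reciprocal overlap, beside 49.6% and 50.4% of all loci. A flank of 5 kb gave KLA-only shares of 100% for Fos and 100% for JunB, as did the nearest start, with 57.1% of JunD peaks with PPARγ without a knockout peak, 4 genes with a knockout Jun peak and a CEBP motif at 5.71% of loci. The central 100 bp gave 14.9% for the PU.1 core and 5.84% for the CEBP motif, with no share over all loci at that width beside them. Fewer peaks or loci enter the shorter lists and narrower windows by construction, and otherwise the cause was not tested. No paired analysis was possible because each condition had 1 list and no test was run. Counting error over 154 loci sets the precision, and replicate spread is unknown.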
